A study of Mus musculus with 11 samples.

Results

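The genes described here are 9 transcripts for cardiac potassium channel subunits, a pacemaker channel and the gap junction protein connexin 43: Kcnd2, Kcnd3, Kcnip2, Kcnj2, Kcnj3, Kcnq1, Kcnh2, Hcn2 and Gja1. They were taken by name from the mouse gene symbols of the 55414 gene identifiers in the tables. All 9 passed the filter on low counts, which left 14556 genes for testing. No pore subunit of a voltage-gated sodium channel is among the 9, and the sodium current they touch is the part carried by Hcn2, whose channel passes both sodium and potassium.

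The RNA came from the apex of C57BL/6 mouse hearts and was sequenced in bulk, as 11 libraries in 3 groups. The NR group (4 libraries) was not irradiated. The S-PRT group (4 libraries) received standard proton radiotherapy, and the F-PRT group (3 libraries, numbered 2 to 4) received FLASH proton radiotherapy, which delivers the dose at an ultra-high rate. Both irradiated groups received a single dose of 40 Gy aimed at the apex and were compared with NR 2 weeks later. No label ties a library to its own mouse. The p-values therefore rest on library-to-library spread alone, and that spread could be technical.

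Heart muscle cells end each beat by letting potassium out. Kcnd2 and Kcnd3 encode the pores of the fast transient outward current of early repolarisation, and Kcnip2 encodes the auxiliary subunit that helps bring these pores to the membrane. Kcnj2 encodes a pore of the inward rectifier that holds the resting potential, Kcnj3 a pore of the acetylcholine-activated channel, and Kcnq1 and Kcnh2 the pores of the slow and rapid delayed rectifiers. Hcn2 encodes a channel opened by hyperpolarisation, and Gja1 encodes connexin 43, the main gap junction protein of the working ventricle.

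The libraries held 20758170 to 40136578 expected counts. Mitochondrially encoded transcripts took 30.6% to 43.8% of the counts in NR, 37.1% to 43.5% in S-PRT and 24.2% to 42.3% in F-PRT. The 12 cardiomyocyte markers were all detected and summed to 39548 to 55795 TPM (a level per transcript length, with every library brought to an equal total) in NR, 40212 to 46362 in S-PRT and 45229 to 80316 in F-PRT. Across the genes of a library, the Spearman correlation between transcript length and the deviation of log2 CPM from its mean over libraries was 0.338 to 0.418 in NR and -0.257 to 0.267 in S-PRT, against -0.556 to -0.162 in F-PRT.

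In unirradiated apex, per transcript length, Gja1 was the most abundant of the 9 at 89.1 ± 18.7 TPM (SD, n = 4), followed by Kcnip2 at 71.1 ± 11.4 TPM. Their ranges overlapped. Kcnh2 came next at 24.4 ± 5.0 TPM, apart from both its neighbours. Kcnj3 (11.4 ± 1.2 TPM), Kcnq1 (9.69 ± 1.48 TPM) and Hcn2 (8.63 ± 1.69 TPM) overlapped from one to the next. Kcnj2 (5.34 ± 0.54 TPM) and Kcnd2 (4.47 ± 0.59 TPM) overlapped each other and lay below Hcn2. Kcnd3 was lowest at 1.62 ± 0.094 TPM, below every library of Kcnd2.

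Whether the 9 transcripts differed after either mode of irradiation was tested with edgeR over all 14556 genes, and a gene is called at an adjusted p under 0.05. After F-PRT, 2 of the 9 fell, Kcnd3 and Kcnj2, and none rose. Of all genes tested, 8.67% were called lower in that comparison, 10.8% higher and 19.5% in either direction. After S-PRT, none of the 9 was called, and none had an unadjusted p under 0.05. Of all genes, 0.419% were called lower there, 0.872% higher and 1.29% in either direction. DESeq2 also called 0 of the 9 in that comparison, beside 697 of all 14556 genes. F-PRT against S-PRT gave 0 calls among the 9 and 0 (0%) among all genes with edgeR. There 3 of the 9 and 2315 of all genes had an unadjusted p under 0.05. DESeq2 called 0 of the 9 and 167 of all genes for F-PRT against S-PRT. With both irradiated groups averaged against NR, only Kcnd3 was called of the 9, beside 6.4% of all genes lower, 8.15% higher and 14.6% in either direction. The median log2 fold change of the 9 was -0.04 after S-PRT and -0.18 after F-PRT, beside 0.01 and 0.03 over all genes. These comparisons share the NR libraries. In bulk tissue, fewer cells of a type and less RNA per cell cannot be told apart.

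**Figure D1:**
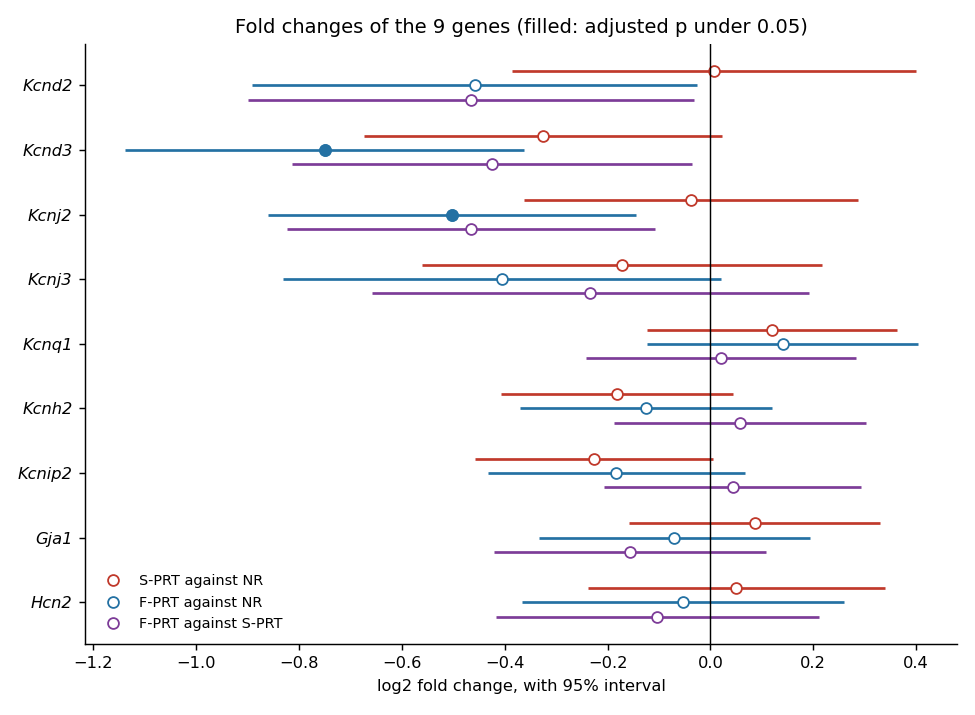
Log2 fold change (horizontal axis) of each of the 9 genes in 3 comparisons, with points for the edgeR estimate, lines for its 95% interval and filled points for an adjusted p under 0.05. The filled points are those of Kcnd3 and Kcnj2 for F-PRT against NR.

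Kcnd3 had the largest decrease of the 9. Its promoter is shown because Kcnd3 moved most, with those of Kcnj2, the other gene called, and of Kcnip2, the partner subunit of the Kcnd channels. Each is the 250 bases upstream of the gene's start on the gene's own strand, from RefSeq on GRCm38.p6, and capitals mark CACCC or its complement GGGTG, the core letters bound by Krüppel-like factors. The 3 lie at chr3:105451640-105451889 (plus strand), chr11:111065914-111066163 (plus strand) and chr19:45816064-45816313 (minus strand).
Kcnd3: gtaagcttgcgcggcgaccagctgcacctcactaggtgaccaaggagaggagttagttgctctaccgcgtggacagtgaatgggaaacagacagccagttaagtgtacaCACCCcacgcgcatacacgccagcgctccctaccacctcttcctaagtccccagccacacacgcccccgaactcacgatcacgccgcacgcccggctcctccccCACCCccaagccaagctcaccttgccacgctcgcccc
Kcnj2: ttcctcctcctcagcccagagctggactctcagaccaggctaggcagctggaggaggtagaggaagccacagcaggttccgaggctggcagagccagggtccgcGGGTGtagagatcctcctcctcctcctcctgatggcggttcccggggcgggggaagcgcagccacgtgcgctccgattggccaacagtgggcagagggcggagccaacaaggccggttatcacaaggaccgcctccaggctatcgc
Kcnip2: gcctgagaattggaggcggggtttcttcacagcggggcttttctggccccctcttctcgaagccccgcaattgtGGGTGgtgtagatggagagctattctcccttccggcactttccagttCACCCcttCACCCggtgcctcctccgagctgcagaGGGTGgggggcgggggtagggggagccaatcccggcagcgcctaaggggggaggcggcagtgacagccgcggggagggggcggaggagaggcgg

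Of the 9 genes, 8 matched the promoter table and Kcnq1 did not. CACCC on either strand occurred 2 times for Kcnd3, 1 time for Kcnj2 and 4 times for Kcnip2. It occurred 3 times each for Kcnh2 and Hcn2, 1 time for Kcnd2 and 0 times for Kcnj3 and Gja1, and 52.0% of the 32851 promoters in the table held it. The letters CACGTG occurred for Kcnj2 alone of the 8, and 6.02% of all promoters held them. GATAA on either strand occurred for Kcnj2 and Gja1, and 22.6% of all promoters held it. These matches describe the letters and are not binding sites.

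The transient outward group is given first. Kcnd3 stood at 12.6, 11.3, 9.33 and 9.46 TMM-scaled CPM (CPM, counts scaled to library size and between libraries) in NR replicates 1 to 4, at 9.51, 9.21, 6.71 and 8.58 in S-PRT replicates 1 to 4, and at 5.66, 8.23 and 5.27 in F-PRT replicates 2 to 4. All 3 F-PRT libraries lay below all 4 NR libraries, while the S-PRT range overlapped both. Of all genes, 13.9% had F-PRT wholly below NR and 17.5% wholly above, and Kcnd3 was the only member in either class. The fold change was -0.75 ± 0.18 (log2, SE) for F-PRT, a level 1.68-fold lower (95% interval -1.14 to -0.36, adjusted p = 0.017). It was -0.33 ± 0.16 for S-PRT (adjusted p = 0.30), -0.42 ± 0.18 for F-PRT against S-PRT (adjusted p = 0.29) and -0.54 ± 0.14 for both irradiated groups against NR (adjusted p = 0.030). In TPM, all 7 irradiated libraries, 0.84 to 1.31, lay below the 4 NR libraries, 1.52 to 1.71. The share of all genes so separated in TPM was not counted. On log2(TPM + 1) the median gene was at -0.13 in S-PRT and 0.02 in F-PRT against NR. The F-PRT call was lost without F-PRT replicate 2 (adjusted p = 0.054) or replicate 4 (adjusted p = 0.062). Kcnd3 counts were not whole in S-PRT replicate 4, where RSEM shared some reads with other genes.

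Kcnd2 encodes the second pore of the same current. Its level was 31.9, 24.9, 18.1 and 20.7 CPM in NR, 31.4, 24.1, 21.0 and 19.5 CPM in S-PRT and 14.7, 18.3 and 19.1 CPM in F-PRT, in replicate order. The NR spread was wide and reached down into the F-PRT range, and the F-PRT libraries all lay below the S-PRT libraries. Of all genes, 5.17% had F-PRT wholly below S-PRT and 5.45% wholly above, and Kcnd2 was the only member in either class. The fold change was -0.46 ± 0.20 for F-PRT against NR (adjusted p = 0.12), 0.01 ± 0.18 for S-PRT against NR (adjusted p = 0.99) and -0.47 ± 0.20 for F-PRT against S-PRT (adjusted p = 0.29).

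Kcnip2 was at 154, 145, 150.1 and 143 CPM in NR, 132, 146, 112 and 116 CPM in S-PRT and 111, 152 and 129 CPM in F-PRT. The NR libraries lay close together, and 3 of 4 S-PRT and 2 of 3 F-PRT libraries lay below them. The fold change was -0.23 ± 0.11 for S-PRT (95% interval -0.46 to 0.00, adjusted p = 0.28) and -0.18 ± 0.12 for F-PRT (95% interval -0.43 to 0.07, adjusted p = 0.27). In TPM, the 4 S-PRT libraries, 47.3 to 56.5, all lay below the NR libraries, 58.8 to 85.1. On log2(TPM + 1) the median gene was itself at -0.13 in S-PRT against NR. The share of all genes so separated in TPM was not counted. No member had S-PRT wholly below or above NR in CPM, where 6.71% and 7.34% of all genes did, and none had all irradiated libraries wholly below or above NR, where 3.97% and 4.95% did.

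The balance of these subunits was compared as ratios of TPM with exact two-sided permutation tests, whose smallest possible p is 0.029. The ratio of Kcnd2 to Kcnd3 was 2.78 ± 0.43 (SD) in the 4 NR libraries, 3.75 ± 0.69 in the 4 of S-PRT and 3.79 ± 1.08 in the 3 of F-PRT, with exact p = 0.057 for S-PRT and 0.14 for F-PRT against NR. The ratio of Kcnip2 to summed Kcnd2 and Kcnd3 was 11.8 ± 2.2 in NR and 10.2 ± 1.2 in S-PRT, against 14.1 ± 0.41 in F-PRT. Every F-PRT library lay above every S-PRT library in that ratio (exact p = 0.029), and the 9 ratio comparisons gave 0 calls after adjustment (smallest adjusted p = 0.17).

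**Figure D2:**
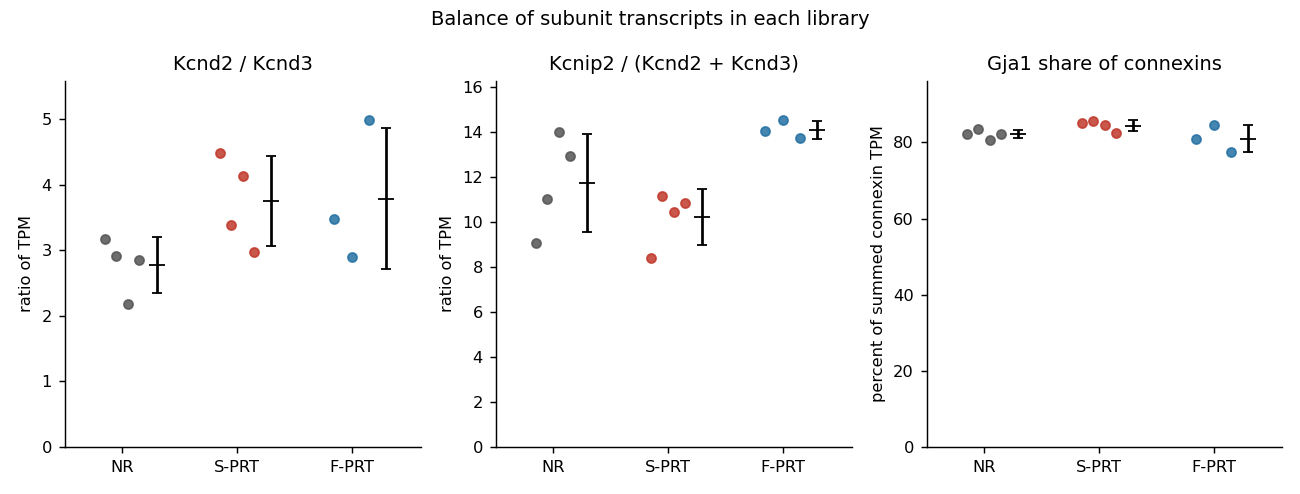
Ratios of TPM for Kcnd2 to Kcnd3 and for Kcnip2 to the 2 Kcnd genes, and Gja1 as a percent of summed connexin TPM (vertical axes), by group. Points are libraries and bars are the mean ± SD. The 3 F-PRT libraries sit between 13.7 and 14.5 in the middle panel, above the S-PRT libraries.

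Of the inward rectifiers, Kcnj2 was at 31.6, 33.3, 27.6 and 26.5 CPM in NR, 32.5, 33.8, 25.8 and 24.0 CPM in S-PRT and 16.6, 26.7 and 19.9 CPM in F-PRT. F-PRT replicates 2 and 4 lay below every other library, and replicate 3 lay just inside the NR range. The fold change was -0.50 ± 0.17 for F-PRT (95% interval -0.86 to -0.14, adjusted p = 0.0496), a call at the edge of the threshold. It was -0.04 ± 0.15 for S-PRT (95% interval -0.36 to 0.29, adjusted p = 0.93) and -0.46 ± 0.17 for F-PRT against S-PRT (adjusted p = 0.23). The call was lost without F-PRT replicate 2 or 4, without any 1 of the 4 NR libraries, and without S-PRT replicate 1 or 2.

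Kcnj3 was at 65.3, 66.5, 47.8 and 48.2 CPM in NR, 61.4, 52.3, 43.7 and 44.8 CPM in S-PRT and 30.8, 56.6 and 41.9 CPM in F-PRT. All 3 groups overlapped. The fold change was -0.17 ± 0.18 for S-PRT (adjusted p = 0.66) and -0.41 ± 0.20 for F-PRT (adjusted p = 0.16), and without F-PRT replicate 3 the latter was called at -0.64 (adjusted p = 0.029).

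The delayed rectifier pores gave no call. Kcnq1 ranged from 26.5 to 32.7 CPM in NR, 27.7 to 33.5 in S-PRT and 26.1 to 37.1 in F-PRT, and differed from NR by 0.12 ± 0.11 in S-PRT (log2, adjusted p = 0.61) and 0.14 ± 0.12 in F-PRT (adjusted p = 0.43). Kcnh2 ranged from 64.7 to 84.3 CPM in NR, 61.5 to 67.8 in S-PRT and 60.3 to 81.0 in F-PRT, and differed from NR by -0.18 ± 0.10 in S-PRT (adjusted p = 0.38) and -0.12 ± 0.11 in F-PRT (adjusted p = 0.45). The groups overlapped for both genes.

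Hcn2 ranged from 26.3 to 27.9 CPM in NR, 21.4 to 33.3 in S-PRT and 22.9 to 30.0 in F-PRT. Its fold change was 0.05 ± 0.13 for S-PRT (95% interval -0.24 to 0.34) and -0.05 ± 0.14 for F-PRT (95% interval -0.37 to 0.26). Both irradiated groups were spread more widely than NR and on both sides of it.

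Gja1 was at 253, 279, 246 and 278 CPM in NR, 312, 249, 289 and 273 CPM in S-PRT and 242, 302 and 211 CPM in F-PRT. The groups overlapped throughout. The fold change was 0.09 ± 0.11 for S-PRT (95% interval -0.16 to 0.33, adjusted p = 0.74) and -0.07 ± 0.12 for F-PRT (95% interval -0.33 to 0.19, adjusted p = 0.71). No change in Gja1 mRNA was called, and a change within these intervals may have been missed. Gja1 made up 82.1% ± 1.1 of summed connexin TPM in NR, against 84.4% ± 1.4 in S-PRT and 81.0% ± 3.5 in F-PRT (exact p = 0.057 and 0.57 against NR).

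**Figure D3:**
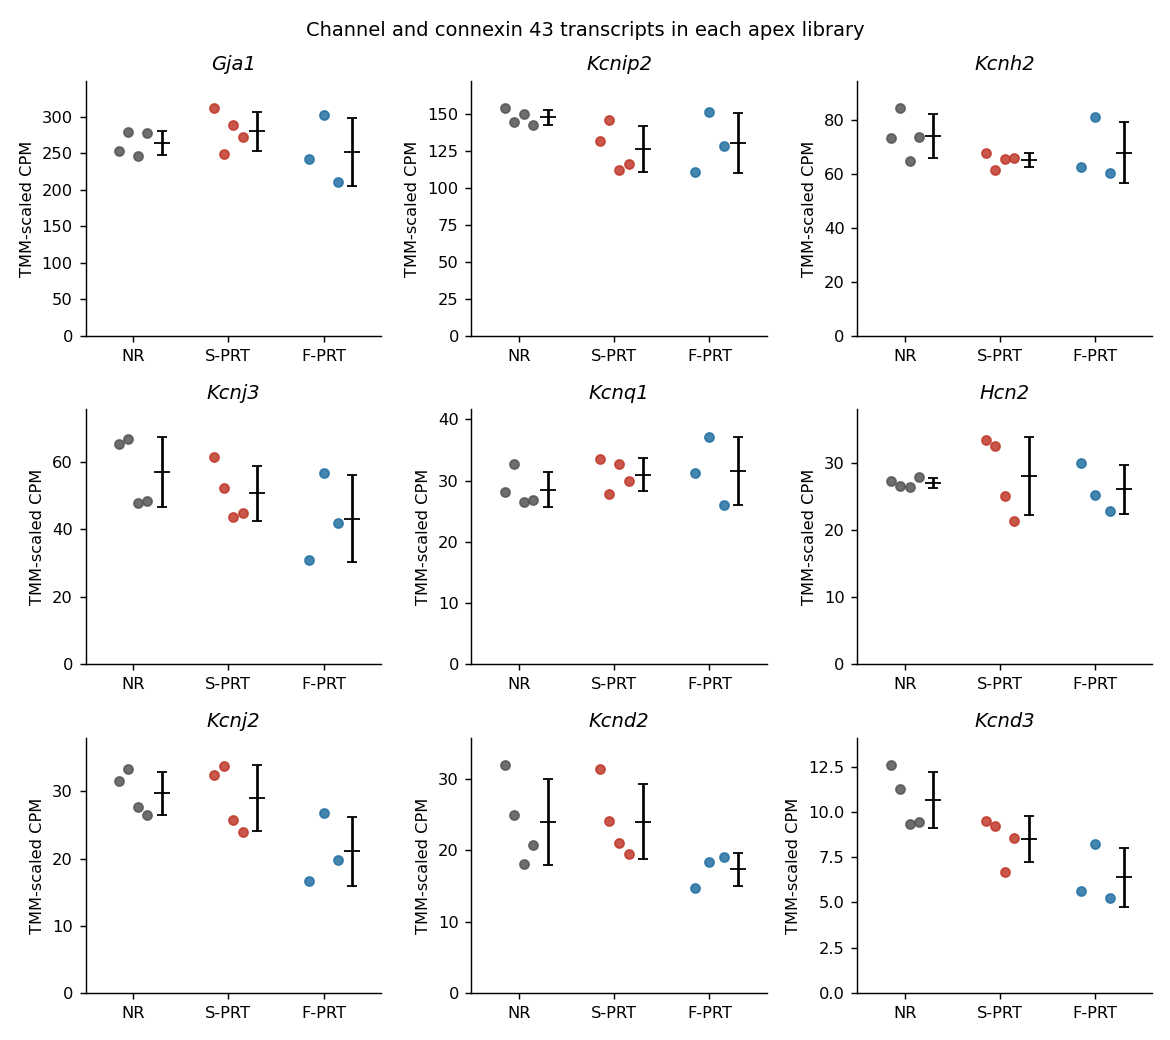
TMM-scaled CPM (vertical axes, from 0) of each gene in every library, by group. Points are libraries and bars are the mean ± SD. For Kcnd3 the 3 F-PRT points, 5.27 to 8.23, lie below the 4 NR points, and for Gja1 the groups overlap.

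The 4 members with the lowest F-PRT fold changes were also the 4 with the longest transcripts. Mean deposited transcript length was 6627 bases for Kcnd3, 5444 for Kcnj2, 5152 for Kcnd2 and 4676 for Kcnj3, longer than 85.6% to 95.6% of the genes tested. The other 5 measured 2238 to 3195 bases. With each library's trend on transcript length removed, neither call for F-PRT against NR was kept: Kcnd3 was at -0.42 (adjusted p = 0.15) and Kcnj2 at -0.22 (adjusted p = 0.48). Kcnip2, whose transcript is the shortest of the members and longer than 43.9% of the genes tested, was at -0.24 after that step.

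**Figure D4:**
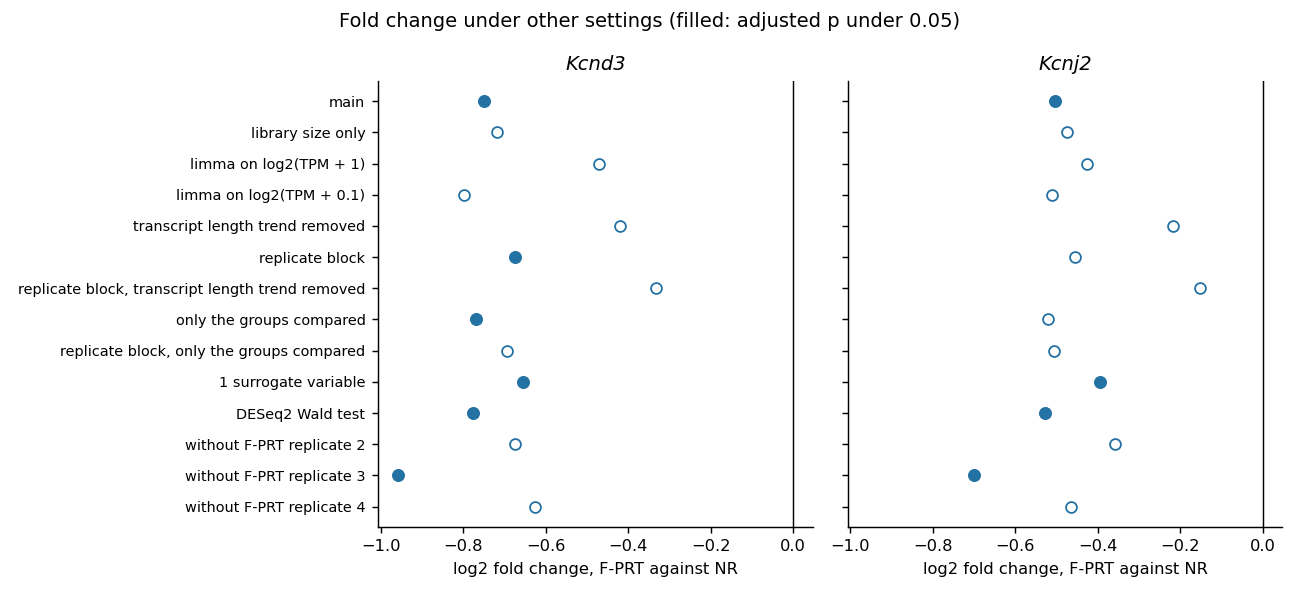
Log2 fold change of Kcnd3 and Kcnj2 for F-PRT against NR (horizontal axis) under the main and 13 other settings, filled where the adjusted p was under 0.05. All points lie below 0. Kcnd3 is filled in 6 of 14 and Kcnj2 in 4 of 14. Not all settings run are drawn. Over all of them, Kcnd3 was called in 8 of 14 other settings and in 9 of 11 fits leaving out 1 library. Kcnj2 was called in 5 of 14 and 3 of 11.

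RSEM's deposited gene length is an average over isoforms weighted by abundance, so it moves when the estimated isoform mix moves. For Kcnj3 it was 4881 ± 58.6 bases in NR and 4364 ± 196 in F-PRT, and for Kcnh2 3095 ± 96.5 in NR and 2545 ± 399 in F-PRT. For Kcnip2 it was 2198 ± 33.3 bases in NR, against 2249 ± 27.7 in S-PRT and 2276 ± 38.2 in F-PRT. In these 4 comparisons with NR the groups did not overlap (exact p = 0.029 each), and none of the 18 length comparisons was called after adjustment (smallest adjusted p = 0.13).

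**Figure D5:**
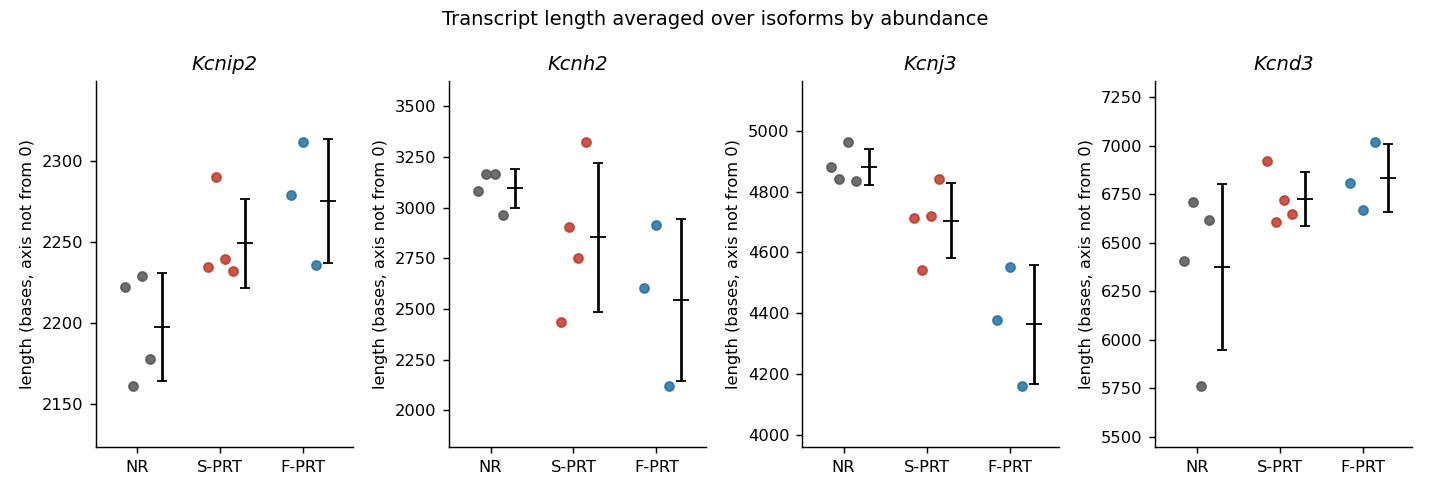
Transcript length in bases averaged over isoforms by abundance (vertical axes, not from 0) for 4 genes, by group. Points are libraries and bars are the mean ± SD. The F-PRT points of Kcnj3 and Kcnh2 lie below the NR points, and those of Kcnip2 above.

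Some cell type markers were called beside these results, and their part in them was not tested. Of all genes, 10.8% were called higher and 8.67% lower after F-PRT. After F-PRT, 2 of 12 cardiomyocyte markers rose (Tcap 0.50 ± 0.11, adjusted p = 0.014, and Myl3 0.47 ± 0.14, adjusted p = 0.036), 1 of 8 fibroblast markers fell (Pdgfra -1.34 ± 0.25, adjusted p = 0.0086) and 1 of 8 macrophage and leukocyte markers rose (C1qa 0.91 ± 0.29, adjusted p = 0.045). With the length trend removed, none of these 4 was called: Tcap was at 0.14 (adjusted p = 0.49), Myl3 at 0.10 (adjusted p = 0.59), Pdgfra at -0.98 (adjusted p = 0.074) and C1qa at 0.57 (adjusted p = 0.29). Summed fibroblast markers ranged from 132 to 323 TPM in NR and 77.6 to 239 in F-PRT, and summed macrophage markers from 78.3 to 174 and 91.2 to 244. None of these markers was at 0 in all libraries. After S-PRT 0 of these markers were called, while in a fit of NR and S-PRT blocked by replicate number 7 of 8 macrophage markers were called higher and 4 of 8 endothelial and 1 of 8 fibroblast markers lower. That blocked fit called 1426 of all 14556 genes, 957 of them higher. Relative to the mean of the cardiomyocyte markers on the log2 scale, Kcnd3 differed from NR by -0.35 in S-PRT and -0.85 in F-PRT, and Kcnj2 by -0.62 in F-PRT (exact p = 0.029 each), with 0 of 27 such comparisons called after adjustment (smallest adjusted p = 0.15).

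The other channel genes come from the context lists. Of 14 other voltage-gated potassium channel subunits tested, Kcnv2, a silent modifier subunit, fell after both S-PRT (-0.66 ± 0.14, adjusted p = 0.037) and F-PRT (-0.88 ± 0.15, adjusted p = 0.0067). In the fit blocked by replicate number, 3 of these 14 were called lower after S-PRT. That fit called 1426 of all 14556 genes, 957 of them higher and the rest lower. Of 19 inward rectifier, ATP-sensitive and two-pore channel genes, Abcc9, the sulfonylurea receptor of the muscle ATP-sensitive channel, fell after F-PRT (-0.81 ± 0.16, adjusted p = 0.0098) and Kcnn4 rose (1.72 ± 0.56, adjusted p = 0.048). Kcnj5, which pairs with Kcnj3 in the acetylcholine-activated channel, was at -0.18 ± 0.12 and -0.21 ± 0.13 and was not called. Of the sodium channel subunits listed, Scn4a (-1.01 ± 0.17, adjusted p = 0.0061) and Scn7a (-0.54 ± 0.16, adjusted p = 0.038) fell after F-PRT. The blocked fit of S-PRT called Scn4a and Scn7a lower, and 1 of the 19, Kcnn4, higher. With the length trend removed from F-PRT against NR, Abcc9 and Scn4a were still called (adjusted p = 0.037 and 0.035), and Kcnv2, Kcnn4 and Scn7a were not (adjusted p = 0.063 to 0.65). The same step ended the S-PRT call of Kcnv2 (-0.55, adjusted p = 0.12).

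Of 17 intercalated disc partners of connexin 43, 0 were called after S-PRT (1, Tjp1, lower in the blocked fit) and 6 fell after F-PRT, with none rising. Of all genes, 8.67% were called lower and 10.8% higher after F-PRT. The blocked fit of S-PRT called 1426 of all 14556 genes, 957 of them higher and the rest lower. The 6 included the scaffold Tjp1, which binds connexin 43 (-0.82 ± 0.12, adjusted p = 0.0046), Ctnna3 (-1.02 ± 0.19, adjusted p = 0.0085), Ank2 (-0.66 ± 0.14, adjusted p = 0.012) and Ank3 (-0.50 ± 0.12, adjusted p = 0.017). With the length trend removed, Tjp1, Ctnna3 and Ank2 were still called (adjusted p = 0.015, 0.029 and 0.036), and Ank3 was not (adjusted p = 0.12). None of 7 other connexins and pannexins was called in either comparison, and Gja5, the connexin of atria and conduction tissue, was at -0.80 ± 0.23 and -0.55 ± 0.25 (adjusted p = 0.10 and 0.13). Klf15, which in mouse heart is known to control Kcnip2, was at -0.19 ± 0.11 and -0.20 ± 0.12 and was not called.

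The 5 genes whose log2 CPM followed Kcnd3 most closely over the 11 libraries were Pcmtd1, Arhgap5, Pias2, Neo1 and March6, each with a Pearson correlation of 0.98. For Kcnj2 they were Lancl3, Cacna2d1, Cd164, Dlat and Ghr (0.94 to 0.96), and for Kcnip2 Kcnk3, Lztfl1, Zranb2, Dbt and Lgalsl (0.92 to 0.96). These points share library, depth and scaling. Among the members the closest pair was Kcnj2 and Kcnj3 (0.90), followed by Kcnj2 and Kcnd3 (0.85).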

How the data were processed

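Poly(A)-selected, directional libraries were made from total RNA of integrity above 9, per the labels' protocols. The tools named, per the submitters' processing notes and without versions, are STAR, RSEM, cutadapt, FastQC and edgeR. The builds named there are mm10 and GRCm39. The authors deposited expected counts, TPM and abundance-weighted transcript length per gene, per the file headers. Strand use in counting is not stated, so overlapping and antisense genes are uncertain. Expected counts were rounded, filtered with filterByExpr (minimum count 10, minimum total 15), scaled by TMM and fitted in edgeR 4.0.16 (R 4.3.3) with all 11 libraries and 8 residual degrees of freedom, with Benjamini-Hochberg adjustment over 14556 genes. Single values were tested with exact two-sided permutation tests (70 splits of 4 against 4, 35 of 4 against 3). The fit was tested on simulated data.

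The 9 genes and the 15 context lists (169 genes) were chosen with earlier results of these data known. Named were all 9 genes, up to 4 called genes of each list or else the 1 with the smallest p, 6 genes always looked up, and the 5 closest correlates of 3 members. A few genes of the lists are not reported here. Alternatives used limma 3.58.1, DESeq2 1.42.0, sva 3.50.0, other scalings and filters, a length trend, a replicate block and leaving out each library. Same-numbered NR and S-PRT libraries had correlated deviations (0.184 to 0.363 over 11107 genes, all 4 pairs over 0.1). NR and S-PRT libraries with different numbers ranged from -0.447 to 0.443, so these correlations do not single out the same-numbered pairs. The block by replicate number therefore rests on the titles, and whether the numbers pair the libraries is not known. Same-numbered NR and F-PRT libraries ranged from -0.446 to 0.233.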

Additional observations from a re-analysis of the deposited data

Results flagged for a closer look

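In 54 groups of values, 2 held a library far from the others of its group. Chance flags about 1 in 20, so 2 of 54 is not above that rate. The abundance-weighted transcript length of Kcnip2 was 2290.59 bases in S-PRT replicate 2, against 2232.33 to 2239.44 in the other 3 S-PRT libraries. That of Gja1 was 2960.73 bases in NR replicate 3, against 3072.22 to 3073.02 in the other 3 NR libraries. Both flagged values are shifts in the estimated isoform mix as deposited. The Gja1 length in F-PRT replicate 2, 3038.38 bases, also stood apart from replicates 3 and 4 (3072.48 and 3072.15) and was not flagged.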

How the results depend on the processing

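Among the 9 genes, the 0 calls in the S-PRT to NR and F-PRT to S-PRT comparisons held in each of 14 other settings and when any 1 library was left out. The 2 calls for F-PRT against NR became 0 with scaling by library size only, with limma on log2(TPM + 1) or log2(TPM + 0.1), with the transcript length trend removed, and with the replicate block plus that trend or plus only the groups compared. They became 1 (Kcnd3) with the replicate block, with only the groups compared, and without mitochondrially encoded genes. Leaving out 1 library gave 0 to 3 calls, with 0 without F-PRT replicate 2 or 4 and 3 without F-PRT replicate 3. The 1 call for all irradiated libraries became 0 with both TPM settings, the length trend, the replicate block with or without that trend, and only the groups compared, and was 0 to 2 with 1 library left out: 0 without any 1 of the NR libraries or F-PRT replicate 2, and 2 without F-PRT replicate 3. The cause was not tested. No fold change of the 9 that was called in any setting changed sign.

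Counts over all genes moved too. F-PRT against NR had 2841 calls, 134 with library size only, 71 with log2(TPM + 1), 497 with the length trend removed, 1501 with the replicate block and 29 with the block in only the groups compared. S-PRT against NR had 188, and 1426 in the fit of those groups alone blocked by replicate number. In that fit Kcnd3 was at -0.32 (adjusted p = 0.060) and Kcnip2 at -0.23 (adjusted p = 0.095). The block changed no call among the 9 for S-PRT. Library-size scaling moved the median of all genes by -0.14 in S-PRT against NR. The fits without mitochondrially encoded genes and with the block in only the groups compared were chosen after seeing the data. With 3 or 4 libraries a group, changes within the printed intervals of genes that were not called may have been missed.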

Other observations

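Of 15 transcription factors of the working-muscle channel programme tested, 1 rose and 2 fell after S-PRT, and 2 rose and 3 fell after F-PRT. Of all genes, 0.872% were called higher and 0.419% lower after S-PRT, and 10.8% higher and 8.67% lower after F-PRT. Hand2, a factor of ventricle development, rose in both (0.41 ± 0.09, adjusted p = 0.048, and 0.40 ± 0.10, adjusted p = 0.017). Mef2d, a factor of muscle gene expression, fell in both (-0.32 ± 0.07, adjusted p = 0.044, and -0.50 ± 0.08, adjusted p = 0.0046). Expected counts of Hand2 and Mef2d were not whole in any of the 11 libraries, which means that RSEM divided some reads between genes, and these values are uncertain. Tbx3, a factor of the conduction system, fell after S-PRT (-0.75 ± 0.17, adjusted p = 0.049) and was at -0.49 ± 0.18 after F-PRT (adjusted p = 0.074). With the length trend removed, the S-PRT calls of Hand2 (adjusted p = 0.053), Mef2d (adjusted p = 0.12) and Tbx3 (adjusted p = 0.10) were lost, and the F-PRT calls of Hand2 (adjusted p = 0.042) and Mef2d (adjusted p = 0.037) were kept. Over 25 other settings, the S-PRT call was made in 10 for Hand2, 8 for Mef2d and 9 for Tbx3. Of 7 atrial and conduction markers, 0 were called after S-PRT and 1, the atrial light chain Myl4, rose after F-PRT (1.01 ± 0.25, adjusted p = 0.019), and was at 0.63 with the length trend removed (adjusted p = 0.15). None of 4 transient outward channel partners, 2 other pacemaker channels, 7 pericyte and smooth muscle markers or 4 neural markers was called in either comparison. In the fit of NR and S-PRT blocked by replicate number, 3 of the 7 pericyte and smooth muscle markers were called lower. That fit called 1426 of all 14556 genes, 957 of them higher and the rest lower.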
